A study of Mus musculus with 9 samples.

Results

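Aminoacyl-tRNA synthetases are the enzymes that join each amino acid to its transfer RNA, and their transcripts were followed here across 9 libraries of mouse right ventricle. Members were the protein-coding rows of the deposited gene table whose symbol is a capital letter followed by ars or ars2, together with Eprs, Farsa and Farsb. The rule found 37 genes of 54532, of which 20 encode cytosolic enzymes and 17 mitochondrial ones. All 37 were expressed highly enough to be tested (averaging 0.5 FPKM or more across libraries), as were 13477 genes of the table. FPKM is a fragment count scaled to gene length and library size. Comparisons between genes therefore depend on the length used, and those between libraries on what else each library holds.

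The study asked how the right ventricle of newborn mice responds when the heart is loaded with extra blood, and what cyclosporin A changes. RNA came from the right ventricular myocardium of wild-type C57BL/6 mice that the labels place at postnatal day 7, in 3 groups of 3 libraries. Sham mice had the control operation, VO (volume overload) mice had a fistula made by surgery, and CsA mice had the fistula and injected cyclosporin A, which blocks the phosphatase calcineurin. There was no group given cyclosporin A without a fistula, so its effect was seen only on top of the overload. The labels give neither the time from surgery to harvest nor whether each library is a separate mouse, so p-values measure the spread between these libraries.

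Charging is the step that sets the genetic code: a synthetase activates its amino acid with ATP and transfers it to the matching transfer RNA. The cytosol and the mitochondrion have separate sets of synthetases, all encoded in the nucleus, and the mitochondrial set serves the few proteins that mitochondria translate themselves. Gars and Kars make both the cytosolic and the mitochondrial enzyme from one gene and are counted with the cytosolic set. Eprs encodes one protein that charges both glutamate and proline transfer RNA, and Farsa and Farsb encode the alpha and beta chains of the cytosolic phenylalanine enzyme. Several cytosolic enzymes are held in the multisynthetase complex, and many cytosolic synthetase genes are known targets of ATF4, the transcription factor of the amino acid response.

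Libraries held 12046288 to 15986747 fragments, recovered from the steps of the FPKM values, and 1 library stood apart. In VO 3, mitochondrially encoded genes made up 11.01% of fragments, while every other library had 22.18% to 26.34%. The erythroid markers (5 of 5 present) summed to 2038 FPKM in VO 3 and to 591.4 to 1039 FPKM in the other libraries. The 5 endothelial markers summed to 620.7 FPKM in VO 3 and to 278.3 to 427.6 FPKM elsewhere, through Fabp4 alone (455.8 FPKM in VO 3). The other 4 summed to 164.9 FPKM in VO 3 and to 167.7 to 276.6 FPKM in the other libraries. Of these 4, Pecam1, Cdh5 and Tie1 were lower in every VO library than in every Sham and CsA library, and Kdr overlapped. Cdh5 was at 53.74 to 74.01 FPKM in VO, 93.02 to 114 in Sham and 96.52 to 123 in CsA. The 5 fibroblast markers summed to 773.9 to 847.7 FPKM in VO, above Sham (600.3 to 749.2) and CsA (682.6 to 760.8). Its genes were mixed: Lum was at 150.7 to 182.1 FPKM in VO and 90.98 to 95.91 in Sham. Col1a1 was at 68.89 to 131.4 FPKM in VO and 121.3 to 178.9 in Sham. The 5 macrophage markers summed to 27.63 to 35.98 FPKM in VO and overlapped the other groups. The 5 ventricular muscle markers summed to 8851 to 15070 FPKM, so heart muscle was present in every library. Actc1 alone was at 6492 to 9552 FPKM and Myl2 at 510.7 to 1506 FPKM. Myh6 was at 905.3 to 1205 FPKM in VO, below Sham (2048 to 2576) and CsA (1511 to 2313) without overlap. Myl3 and Tnnt2 were lower in VO 1 and VO 2 than in every other library, but not in VO 3. The sum of the 5 ventricular markers does not measure how much atrial muscle was included. The 5 atrial markers summed to 558.7 FPKM in Sham 1, 585.7 in Sham 3 and 144.7 in CsA 3, against 2.097 to 22.98 in the other libraries; Sln and Bmp10 were at 0 in some of these.

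Cytosolic synthetase transcripts were the more abundant set. Averaged over the 9 libraries, the median level was 10.7 FPKM over the 20 cytosolic genes and 2.99 FPKM over the 17 mitochondrial ones. Among cytosolic genes the level ran from Cars (cysteine) at 2.17 FPKM to Nars (asparagine) at 24.6 FPKM. Among mitochondrial genes it ran from Pars2 (proline) at 1.48 FPKM to Lars2 (leucine) at 29.98 FPKM, the highest mean of all 37. Fragments per member and library ranged from 163 to 2454 in the cytosolic set and from 39 to 7381 in the mitochondrial set. The deposited gene lengths exceed the main transcript for many members, for example 18102 against 4906 bases for Eprs. For Nars (2632 against 2745), Lars (3856 against 3980) and Hars (1987 against 1989) they are shorter. The deposited lengths and the main transcripts thus do not all rest on the same annotation, and levels per kilobase of the main transcript are approximate. Set per kilobase of the main transcript, the medians were 14.1 and 5.52 and the cytosolic set remained the higher.

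**Figure D1:**
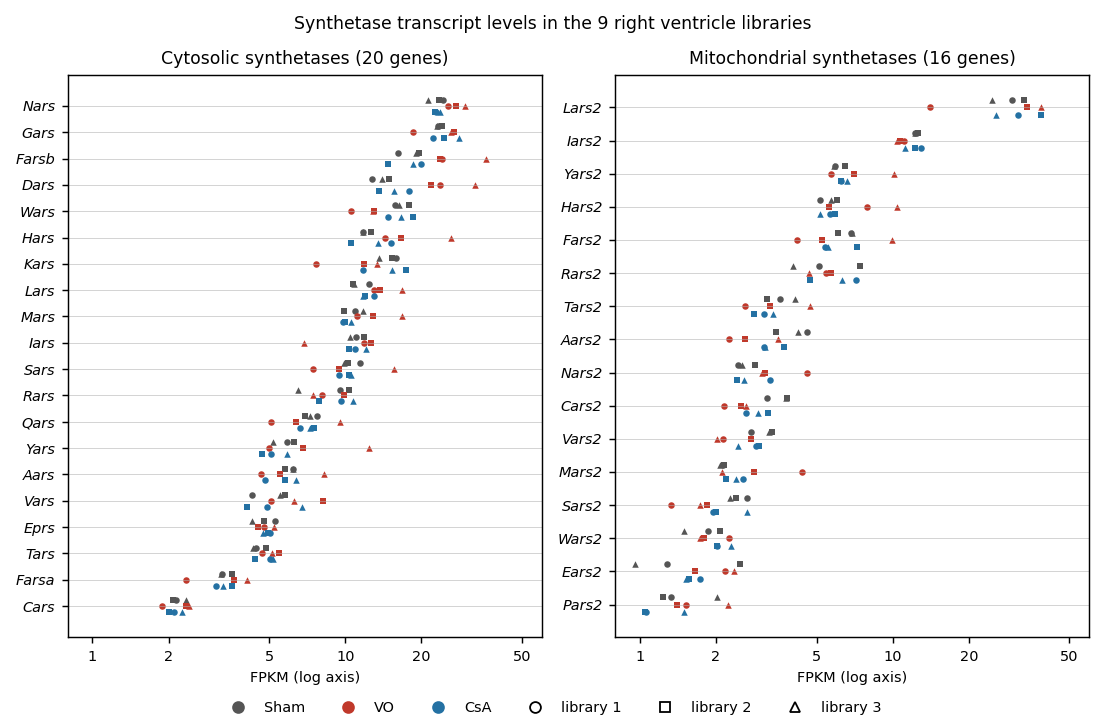
Level of 36 synthetase transcripts in FPKM on a log axis, 1 row per gene ordered by its mean, with cytosolic genes on the left and mitochondrial genes on the right; colour gives the group and marker shape the library. Most cytosolic genes lie to the right of most mitochondrial ones, and the red triangles of VO 3 are the farthest right in 18 rows.

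Overload and Sham were compared first. One member rose in VO: Dars, the cytosolic aspartyl-tRNA synthetase and a part of the multisynthetase complex. Its level was 12.8, 14.9 and 14.0 FPKM in the Sham libraries, 23.8, 21.9 and 32.7 FPKM in VO, and 17.8, 13.6 and 15.6 FPKM in CsA. Every VO library lay above every Sham and CsA library, and the Sham and CsA libraries overlapped. The means were 13.9 ± 1.08 in Sham, 26.1 ± 5.77 in VO and 15.7 ± 2.12 in CsA (SD, n = 3 each). On the log2(FPKM + 1) scale the VO minus Sham difference was 0.85 ± 0.179 (SE), with an adjusted p of 0.0408 in limma. In bulk tissue, more cells of a type and more RNA per cell cannot be told apart. The part that the marker differences given above have in the level of Dars was not tested. Dars lies on the minus strand of chromosome 1, 128363707 to 128417368 in GRCm38 (ENSMUSG00000026356). It overlapped no other annotated gene in its exons, and no transcript of another gene matched it over at least 100 bases at 95% identity.

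The call on Dars was close to the threshold, while its direction held in every setting tried. Its VO and Sham libraries did not overlap, so leaving libraries out or changing the filter or pseudocount could not reverse it. Its difference stayed between 0.32 and 0.98 on the log2 scale over 20 alternative settings and passed the test in 8 of them. Leaving out Sham 1, Sham 2, Sham 3, VO 1, CsA 1 or CsA 3 ended the call, with adjusted p between 0.0587 and 0.183 in limma. Without VO 3 the difference was 0.68 ± 0.138 with an adjusted p of 0.0337, so the higher level was also measured in the other 2 VO libraries. When a trend on GC content was removed as well (treated below), the difference was 0.32, the lowest of the 20 settings. Without the 3 libraries high in atrial markers, which leaves 1 Sham library whose spread is assumed to be that of the other groups, it was 0.75 ± 0.344 (adjusted p 0.975).

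With 1 of 37 members called, the family stood near the background of the comparison. Of all 13477 genes tested, 642 passed, which is 4.76% (2.04% higher and 2.72% lower in VO). At an unadjusted p under 0.05 there were 4 members higher and 5 lower, beside 29.3% of all genes (14% higher and 15.3% lower). The VO and Sham libraries did not overlap for 12 of the 37 members, 6 in each direction, which is 32.4% beside 33.1% of all genes (16.2% higher and 17% lower). The median log2 difference was 0.01 over the cytosolic genes, -0.05 over the mitochondrial genes and 0.00 over all genes tested. Single members differed in both directions.

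**Figure D2:**
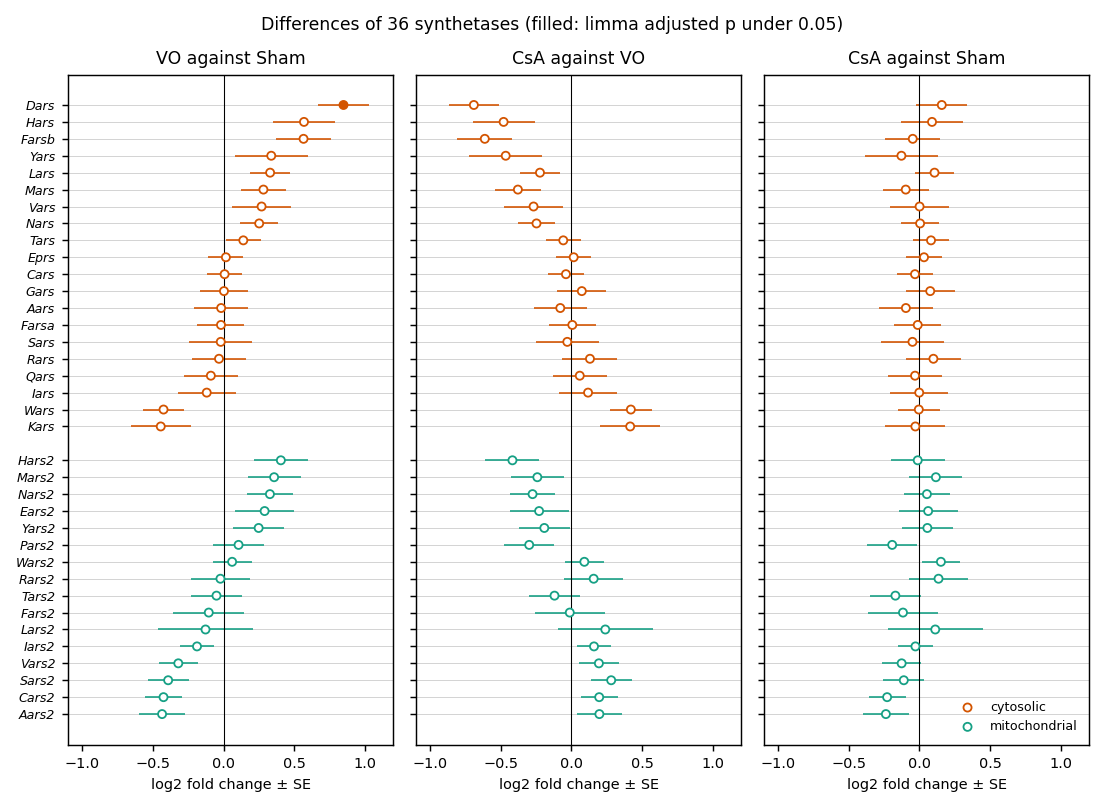
Difference of 36 synthetases on the log2(FPKM + 1) scale with its standard error in the 3 comparisons, 1 row per gene, in the same order in each panel. Dars in VO against Sham, at 0.85, is the only filled point (adjusted p under 0.05), and the CsA against Sham panel stays between -0.24 and 0.16.

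The next cytosolic members on the high side did not pass the test. Farsb, the beta chain of the phenylalanine enzyme, was at 16.2, 19.5 and 19.0 FPKM in Sham, 24.2, 23.6 and 36.0 FPKM in VO, and 19.9, 14.7 and 18.6 FPKM in CsA. All VO libraries were above all Sham and CsA libraries, with VO 3 the highest, and the VO minus Sham difference was 0.56 ± 0.195 with an adjusted p of 0.0989 (0.37 without VO 3). Farsb shares 2315 bases with Sgpp2 on the opposite strand, and Sgpp2 was at no more than 0.0628 FPKM in any library. Hars, the histidine enzyme, was at 11.8, 12.7 and 11.8 FPKM in Sham, 14.3, 16.5 and 26.1 FPKM in VO, and 15.2, 10.5 and 13.4 FPKM in CsA. VO lay above Sham but overlapped CsA, and VO 3 stood well above the other libraries (0.57 ± 0.219, adjusted p 0.123). Without VO 3 the difference of Hars was 0.33. Hars and its mitochondrial partner Hars2 are neighbours that share 198 bases on opposite strands. No source used here says whether the authors' counting used strand, so fragments from such overlaps could go to either gene.

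Wars, the tryptophan enzyme, had the smallest p among the cytosolic members that were lower in VO. It was at 15.7, 17.9 and 16.3 FPKM in Sham, 10.6, 13.1 and 12.9 FPKM in VO, and 14.7, 18.6 and 16.6 FPKM in CsA. All 3 VO libraries were below all libraries of the other groups (-0.42 ± 0.147, adjusted p 0.0996). Kars, the dual lysine enzyme, also had its VO libraries below those of Sham, at 7.68 to 13.4 against 13.6 to 15.9 FPKM, with an adjusted p of 0.197. The direction of Dars, Farsb, Hars and Wars was the same in all 20 settings. For each, the VO and Sham libraries did not overlap, so leaving libraries out could not reverse it.

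In the mitochondrial set no member passed, and the 4 with an unadjusted p under 0.05 were all lower in VO. Cars2, for cysteine, was at 3.17, 3.83 and 3.80 FPKM in Sham, 2.15, 2.51 and 2.62 FPKM in VO, and 2.63, 3.22 and 2.93 FPKM in CsA. Its 3 VO libraries were the lowest of the 9 (-0.42 ± 0.131, adjusted p 0.0753). Cars2 overlaps Naxd on the opposite strand by 984 bases, and Naxd was at 2.85 to 7.51 FPKM. Sars2, for serine, was at 2.65, 2.41 and 2.28 FPKM in Sham, 1.33, 1.85 and 1.73 FPKM in VO, and 1.948, 2.001 and 2.667 FPKM in CsA. VO was again the lowest group (-0.39 ± 0.144, adjusted p 0.112), on 70 to 128 fragments per library. The others were Aars2, for alanine, at -0.43 (adjusted p 0.113), and Vars2, for valine, at -0.32 (adjusted p 0.161). Without VO 3, 4 members passed: Dars, Mars2 (higher, 0.54, adjusted p 0.0495), Aars2 (lower, -0.57, adjusted p 0.0385) and Cars2 (lower, -0.47, adjusted p 0.0465). That is 10.8% of members, beside 2032 genes or 15.1% of all genes tested in the same fit.

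The VO libraries differed among themselves more than those of the other groups. The SD on the log2 scale was larger in VO than in Sham for 29 of 37 members (78.4%, beside 77.3% of all genes tested) and larger than in CsA for 28 (75.7%, beside 73%). Synthetase genes took 0.223% of all fragments in VO 3 and 0.146% to 0.186% in the other libraries. Leaving mitochondrially encoded genes out of the total, the share was 0.25% in VO 3 and 0.191% to 0.244% elsewhere. VO 3 was the highest of the 9 libraries for 18 members (48.6%, beside 27.3% of all genes) and VO 1 the lowest for 15 (40.5%, beside 22.2%). For 9 members both were true. The part that depth, mitochondrial share, erythroid markers or Fabp4 of VO 3 have in these levels was not tested.

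Among single members this spread was widest for Lars2 and Yars. Lars2, the mitochondrial leucine enzyme, was at 29.7, 33.2 and 24.8 FPKM in Sham, 14.1, 33.9 and 38.6 FPKM in VO, and 31.4, 38.6 and 25.6 FPKM in CsA. VO 1 was the lowest and VO 3 the highest of the 9 libraries, so the group mean of 28.84 ± 13.02 FPKM describes no VO library closely. Yars, the tyrosine enzyme, was at 4.97, 6.78 and 12.4 FPKM in the VO libraries and at 4.67 to 6.26 FPKM in the other 6. Iars, the isoleucine enzyme, went the other way in VO 3, with 6.84 FPKM there and 10.3 to 12.7 FPKM in the other 8 libraries. These 3 genes were picked for their values within VO.

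**Figure D3:**
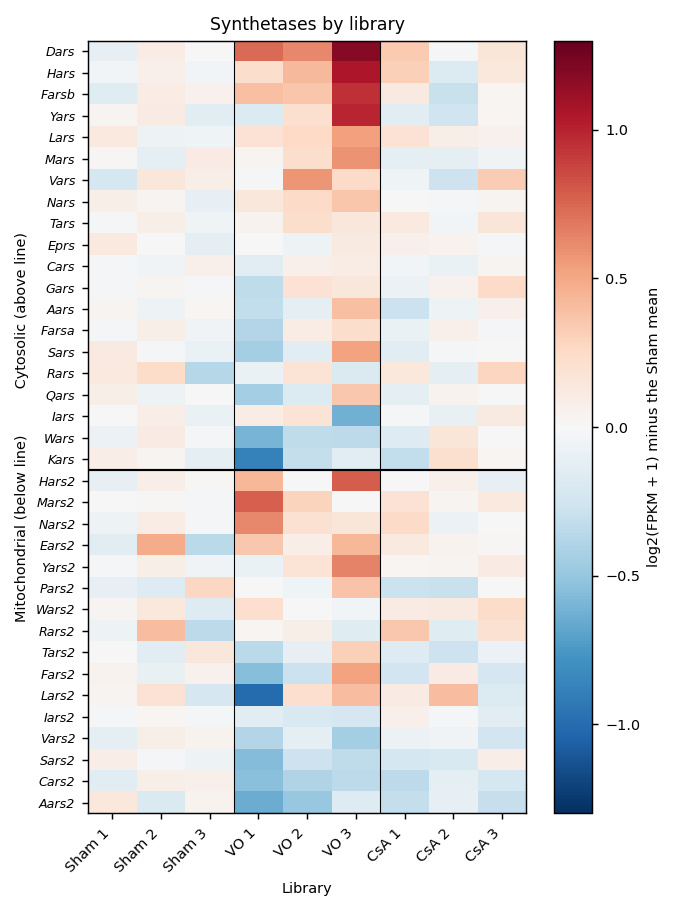
Level of 36 synthetases (rows, cytosolic above the line) in each library (columns) as log2(FPKM + 1) minus the mean of the Sham libraries; red is higher and blue is lower. The VO columns hold the strongest colours of both kinds, VO 1 the deepest blue (Lars2) and VO 3 the deepest red (Dars), and Dars is red in all 3 VO libraries.

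Adding cyclosporin A was read by comparing CsA with VO, which share the fistula. No synthetase passed, and no gene of the 13477 did (0%) in limma or with voom on recovered fragments, with 2219 genes (16.5%; 8.64% higher and 7.82% lower) at an unadjusted p under 0.05. At that unadjusted level there were 4 members: Dars (-0.69 ± 0.179, adjusted p 0.21), Farsb (-0.61 ± 0.195, adjusted p 0.22) and Mars (-0.38 ± 0.161, adjusted p 0.284) were lower in CsA, and Wars (0.42 ± 0.147, adjusted p 0.238) was higher. Mars, the methionine enzyme, was at 11.1, 12.9 and 16.8 FPKM in VO, 9.82, 9.94 and 10.5 FPKM in CsA, and 11.0, 9.89 and 11.8 FPKM in Sham. Its CsA libraries were below its VO libraries, and Sham lay across both. Hars2 was at 7.919, 5.599 and 10.44 FPKM in VO, 5.64, 5.93 and 5.14 FPKM in CsA and 5.16, 6.03 and 5.70 FPKM in Sham. VO 2 lay inside the range of the CsA libraries (-0.42 ± 0.191, adjusted p 0.315). Over the family, CsA and VO did not overlap for 9 members (24.3%, 4 higher and 5 lower, beside 21.2% of all genes, 10.9% higher and 10.3% lower). The median difference was -0.05 in the cytosolic set and 0.09 in the mitochondrial set, beside 0.00 over all genes. VO enters this comparison and the one with Sham, so the opposite signs that Dars, Farsb and Wars have in the 2 comparisons are not independent.

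CsA and Sham were close for the synthetases. No member and no gene passed in limma or with voom (0% called; 200 genes, 1.48%, at an unadjusted p under 0.05, and no member among them). Differences of members ran from -0.24 (Aars2) to 0.16 (Dars), and 1 member, Mars2, had CsA libraries that did not overlap those of Sham (2.7%, beside 9.74% of all genes). Mars2, the mitochondrial methionine enzyme, was at 2.14, 2.15 and 2.07 FPKM in Sham and 2.55, 2.20 and 2.41 FPKM in CsA, a difference of 0.12 ± 0.187. Aars2 was at 4.59, 3.46 and 4.23 FPKM in Sham, 3.10, 3.72 and 3.12 FPKM in CsA and 2.25, 2.60 and 3.51 FPKM in VO. The CsA libraries overlapped both groups (-0.24 ± 0.16 against Sham). Of the cytosolic members, Lars (leucine) was at 12.4, 10.7 and 10.8 FPKM in Sham, 13.02, 13.69 and 16.83 FPKM in VO and 12.96, 11.99 and 11.75 FPKM in CsA. Tars (threonine) was at 4.44, 4.84 and 4.33 FPKM in Sham, 4.70, 5.49 and 5.11 FPKM in VO and 5.03, 4.38 and 5.18 FPKM in CsA. Both had overlapping CsA and Sham libraries, with differences of 0.11 and 0.08. A missed threshold does not show that the groups were alike.

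Cytosolic and mitochondrial enzymes for the same amino acid can be set against each other within a library, which removes any factor common to both genes. Over the 16 pairs compared, the cytosolic gene had the higher level in 12 (11 when set per kilobase of the main transcript). On the deposited gene lengths the highest mean ratio of these was 8.34 for Nars to Nars2; per kilobase of the main transcript that ratio was 4.33 and the highest was 10.8, for Wars to Wars2. Nars was at 21.2 to 24.3 FPKM in Sham, 25.6 to 29.8 in VO and 22.7 to 23.7 in CsA. Nars2 was at 2.45 to 2.86, 3.04 to 4.58 and 2.43 to 3.29 FPKM in the same groups. The lowest mean ratio was 0.436 for Lars to Lars2 (0.148 per kilobase of the main transcript). By these levels leucine had the most mitochondrial relative to cytosolic signal of these 16. The deposited length of Lars2 is 11089 bases against 3894 for its main transcript. Where its fragments lie along that length was not seen, so the level of the enzyme transcript itself is uncertain. The Lars to Lars2 ratio was 0.926 in VO 1, the library with the low Lars2 value, and 0.311 to 0.458 in the other 8.

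The 2 chains of the phenylalanine enzyme can be compared in the same way. The Farsb to Farsa ratio was 4.97, 5.48 and 5.92 in Sham, 10.3, 6.5 and 8.77 in VO and 6.44, 4.13 and 5.65 in CsA. Every VO library was above all Sham and CsA libraries, with a log2 difference of 0.62 for VO against Sham and -0.66 for CsA against VO. Farsa was at 3.21 to 3.57 FPKM in Sham and 2.34 to 4.10 in VO. The highest ratio, in VO 1, came with the lowest Farsa value (2.34 FPKM), and the highest Farsb value, in VO 3, with a ratio of 8.77. Averaged over the 9 libraries the ratio was 6.24 on the deposited gene lengths and 3.23 per kilobase of the main transcript, so its size depends on the length used. The VO libraries did not overlap those of Sham for 6 of the 16 cytosolic and mitochondrial pairs. For single genes, 33.1% of all tested did not overlap in this comparison. Cars, Aars, Vars, Farsb (to Fars2) and Sars were higher relative to their mitochondrial partners and Wars was lower. The ratios of these pairs were not corrected for base composition, which is treated below. With 3 libraries against 3 the smallest exact two-sided permutation p is 0.1, which these pairs reached; after adjustment over the 51 ratio tests it was 0.392, so none passed.

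**Figure D4:**
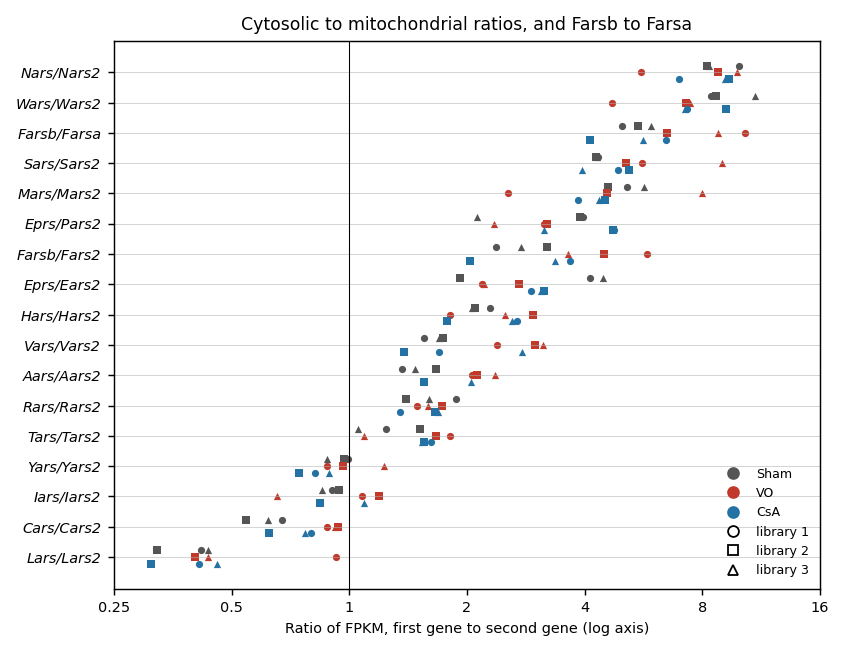
Ratio of the FPKM of the cytosolic gene to that of its mitochondrial partner, and of Farsb to Farsa, in each library on a log axis, ordered by the mean ratio; the vertical line marks equal levels. Farsb/Farsa is at 6.5 to 10.3 in VO and at 4.13 to 6.44 in Sham and CsA, without overlap.

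Base composition moved with these differences. Over 13465 genes with a known GC content, the Spearman correlation of the VO minus Sham difference with GC content was -0.53, and over the 37 members it was -0.33. For CsA against VO the values were 0.40 and 0.15, and for CsA against Sham -0.53 and -0.66. These are descriptions across genes of the same libraries, and genes are not independent replicates. The GC content of members ran from 38.8% (Mars2) to 60.9% (Vars), with a median of 49.4%, as for all genes. Dars had 41.2%, the lowest of the cytosolic set, and Aars2 and Sars2 had 60% and 60.1%. After a smooth trend on GC content was removed from each library, Dars was at 0.56 ± 0.194 with an adjusted p of 0.15, and no gene passed. Cars2 (-0.47), Hars (0.61), Farsb (0.45) and Wars (-0.26) kept their direction, while 3 of the 4 mitochondrial members lower in VO, Aars2 (0.01), Sars2 (0.05) and Vars2 (0.06), came to lie at or just above 0. Mars2 went from 0.36 to 0.01. Vars came to 0.75 ± 0.204 (adjusted p 0.108 in limma) and Mars to 0.44 ± 0.122 (adjusted p 0.109). On the low side Kars came to -0.53 (adjusted p 0.203) and Iars2 to -0.27 (adjusted p 0.193).

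**Figure D5:**
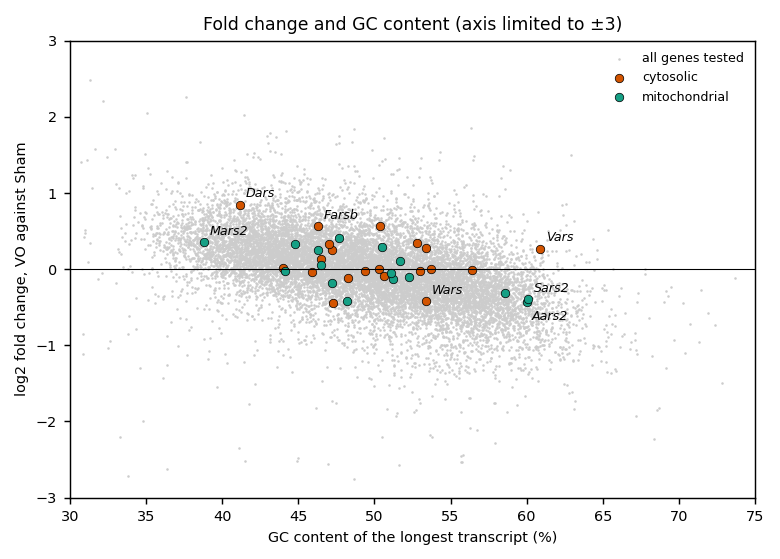
Log2 difference of VO against Sham for each gene tested (grey; points outside the axes are not drawn) against the GC content of its longest transcript in percent, with cytosolic members in orange and mitochondrial members in green. The grey cloud slopes down (Spearman -0.53), with Dars at 41.2% GC in its upper left part and Aars2 and Sars2 in its lower right part.

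The 8 enzymes of the multisynthetase complex did not move as a unit. Dars rose and the other 7, Eprs, Iars, Kars, Lars, Mars, Qars and Rars, did not pass, with a median of -0.01 and a range from -0.44 (Kars) to 0.85 (Dars). The scaffold genes of the complex were at 0.19 for Aimp1, 0.03 for Aimp2 and 0.64 for Eef1e1, and none passed. They belong to a list of 19 charging partners, which also holds editing enzymes, the mitochondrial amidotransferase that makes glutaminyl-tRNA, and tRNA release and export factors. Of 18 tested, 0 passed in limma, and 5 were higher at an unadjusted p under 0.05, beside 14% of all genes. The VO minus Sham difference was above 0 for 17 of the 18, beside 50.4% of all genes, with a median of 0.19. This list was not read after GC correction. The smallest p were those of Prorsd1, a homologue of bacterial editing domains, and Pstk, which acts in selenocysteine transfer RNA synthesis. Prorsd1 was at 4.28, 4.39 and 4.82 FPKM in Sham and 7.49, 6.30 and 13.3 FPKM in VO (0.81 ± 0.225, adjusted p 0.0615). Pstk was at 2.30, 2.55 and 2.31 FPKM in Sham and 3.66, 3.57 and 8.62 FPKM in VO (0.80 ± 0.258, adjusted p 0.0844). VO lay above Sham for both, with VO 3 far above the others.

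Delivery factors carry the charged transfer RNA to the ribosome and move it through. None of the 10 passed in limma, with a median of -0.18. At an unadjusted p under 0.05, 2 were lower, beside 15.3% of all genes tested. Eef1a2, the muscle form of the cytosolic carrier, was at 336, 274.1 and 321.1 FPKM in Sham, 112, 151.3 and 207.7 FPKM in VO and 201.1, 291.2 and 249 FPKM in CsA (-1.02 ± 0.253 for VO against Sham, adjusted p 0.0511). Eef2, the translocase, was at 515.2, 440.1 and 495.5 FPKM in Sham, 240.8, 261.6 and 339 FPKM in VO and 377.3, 531.7 and 379.5 FPKM in CsA (-0.80 ± 0.222, adjusted p 0.0616). In both, every VO library was below every Sham library.

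ATF4 raises synthetase genes together with amino acid synthesis and import genes when amino acids are short or the endoplasmic reticulum is stressed. Of 13 synthetases listed as its targets 0 passed in VO against Sham in limma, with a median of 0.02. At an unadjusted p under 0.05 there was 1 higher (Lars) and 1 lower (Wars), beside 14% and 15.3% of all genes. Of 26 other genes of that response 23 were tested, and 2 fell in VO, beside 2.72% of all genes tested. At an unadjusted p under 0.05 in limma, 4 of the 23 were higher and 7 lower, beside 14% and 15.3% of all genes. VO and Sham did not overlap for 12 of the 23 (52.2%, 6 in each direction), beside 33.1% of all genes. Cebpb, a partner transcription factor, was at 17.3, 14.5 and 19.0 FPKM in Sham, 1.75, 4.64 and 5.55 FPKM in VO and 6.58, 13.5 and 10.9 FPKM in CsA (-1.93 ± 0.334, adjusted p 0.0382). Chac1, a glutathione-degrading enzyme, was at 2.30, 2.11 and 2.97 FPKM in Sham, 0.23, 0.521 and 0.709 FPKM in VO and 1.23, 3.26 and 0.977 FPKM in CsA (-1.22 ± 0.274, adjusted p 0.0408). For both, all VO libraries lay below all libraries of the other groups. Atf4 itself was at -0.86 (adjusted p 0.077), while the serine enzyme Psat1 was at 1.15 (adjusted p 0.0732) and the asparagine synthetase Asns at 0.44 (adjusted p 0.128). The median of the 23 was -0.19. Of 15 amino acid transporters 1 fell, beside the same 2.72% of all genes tested. This was Slc3a2, the heavy chain shared by several importers. It was at 7.93, 6.81 and 7.15 FPKM in Sham, 3.47, 4.92 and 3.62 FPKM in VO and 4.82, 6.99 and 6.91 FPKM in CsA (-0.74 ± 0.172, limma adjusted p 0.0456). Its VO libraries were below all Sham libraries. Over the 20 settings these calls held in 8 for Cebpb, 7 for Chac1 and 8 for Slc3a2, with no change of direction. Leaving libraries out could not change the direction, since VO and Sham did not overlap for these genes.

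The promoters of the ATF4-listed synthetases were searched for an element that ATF4 is known to bind, since the response itself was measured above. RefSeq promoters (GRCm38.p6), from 250 bases before to 50 after the start, were found for 27 of the 37 members. The core TGATGNAA of the composite C/EBP-ATF element was searched on both strands. It occurred in 5 of these 27 (18.5%) and in 3.97% of all 32851 promoters in the table. All 5 were among the 8 ATF4-listed synthetases with a promoter, and none was among the 19 other members. The list names known ATF4 targets, so this split is not independent evidence about ATF4. The windows that hold it are printed 5′ to 3′ on the strand of the gene, with the element in capitals (in all but Yars it is the reverse complement of the core). Positions count from the start used in the RefSeq table, which can differ from the gene start in the deposited table (for Aars it lies inside the deposited gene).
Aars, chr8:111033700-111033888, plus strand, elements at -112 and 9: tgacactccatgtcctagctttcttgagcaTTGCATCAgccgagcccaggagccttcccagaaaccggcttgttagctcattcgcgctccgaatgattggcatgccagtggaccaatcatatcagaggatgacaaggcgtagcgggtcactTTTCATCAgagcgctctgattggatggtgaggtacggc
Gars, chr6:55037941-55038008, plus strand, element at -30: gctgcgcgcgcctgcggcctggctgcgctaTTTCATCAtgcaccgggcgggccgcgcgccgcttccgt
Iars, chr13:49682107-49682174, plus strand, element at 7: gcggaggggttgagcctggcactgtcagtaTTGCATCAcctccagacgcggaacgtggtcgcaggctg
Tars, chr15:11399636-11399703, minus strand, element at -15: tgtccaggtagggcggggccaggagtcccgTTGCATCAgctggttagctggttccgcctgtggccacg
Yars, chr4:129189876-129189943, plus strand, element at 3: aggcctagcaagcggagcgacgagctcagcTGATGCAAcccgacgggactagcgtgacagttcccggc
The 5 genes did not pass in any comparison, with VO minus Sham differences of -0.02 for Aars, 0.00 for Gars, -0.12 for Iars, 0.14 for Tars and 0.34 for Yars. A match describes the letters and does not show that a factor binds there.

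Dars, the member that rose, and Farsb, the next highest by p on that side, had no TGATGNAA in this window. Of the other motifs searched on both strands, GGGCGG (the core bound by SP factors) was in 19 of the 27 promoters (35.7% of all promoters), and CACGTG (the E-box of MYC and USF factors) was in 5 (7.15% of all). Dars had 1 GGGCGG at -9 and no CACGTG, and Farsb had 1 CACGTG at -39 and no GGGCGG. Both promoters are on chromosome 1, minus strand, and are printed whole with that motif in capitals, so that the pair can be compared.
Dars, chr1:128417367-128417666: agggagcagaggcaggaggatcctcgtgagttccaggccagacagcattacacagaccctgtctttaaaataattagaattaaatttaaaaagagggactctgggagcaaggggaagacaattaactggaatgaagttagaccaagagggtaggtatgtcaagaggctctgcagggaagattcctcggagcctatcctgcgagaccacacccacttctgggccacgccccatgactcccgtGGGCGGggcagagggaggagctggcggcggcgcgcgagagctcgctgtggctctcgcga
Farsb, chr1:78488848-78489147: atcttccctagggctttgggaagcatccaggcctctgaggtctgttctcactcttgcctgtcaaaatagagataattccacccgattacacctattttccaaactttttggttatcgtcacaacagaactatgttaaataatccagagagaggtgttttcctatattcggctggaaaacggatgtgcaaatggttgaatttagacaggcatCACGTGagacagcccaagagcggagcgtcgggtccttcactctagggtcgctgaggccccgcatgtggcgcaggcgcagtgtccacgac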

How the data were processed

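RNA from mouse right ventricle was extracted with Trizol and sequenced from NEBNext Ultra libraries, per the labels' protocols. The authors deposited FPKM per gene and library. The tools named, without their roles, are featureCounts 1.5.0-p3, HISAT2 2.0.5, DESeq2 1.20.0, StringTie 1.3.3b and GATK 3.7, with the builds GRCm38 and mm10, per the submitters' processing notes. Neither the annotation release nor the strand setting is given in the sources used here.

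Whole fragments were recovered from the FPKM steps (99.9882% to 100% of values within 0.1 of a whole number), which gives the depth; PCR copies were not removed from it. Replicates differed beyond sampling noise (chi-square per degree of freedom 12.45 to 200.4). Values were taken as log2(FPKM + 1), so changes of low genes are understated, and genes averaging 0.5 FPKM or more entered 1 limma 3.58.1 fit (R 4.3.3) of all 9 libraries with a mean-variance trend, two-sided, with Benjamini-Hochberg adjustment over 13477 genes at 0.05. The fit was tested on simulated data. Pair ratios had exact permutation tests. For 1 member, counted in every total, no result of its own is reported here, and the figures draw the other 36. GC content came from the longest GENCODE M21 transcript (99.77% of identifiers found, 98.33% of those at the same coordinates) and its loess trend used a span of 0.3. Similar transcripts were searched with BLAST+ 2.17.0. Figures used matplotlib 3.10.9.

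Members and lists were chosen with earlier results of these data known. Values per library are given for members past the test, the 4 cytosolic and 2 mitochondrial members with the smallest p in each comparison, the pairs with the highest and lowest ratio, and in other lists the genes past the test or else the 2 with the smallest p; other genes were named after their values were seen. Alternatives were a pseudocount of 0.1, no filter or a mean of 1 FPKM, 2 other scalings, only the groups compared, a replicate block, voom on recovered fragments, GC correction, each library left out, and the 3 atrial-marker libraries left out.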

Additional observations from a re-analysis of the deposited data

How the results depend on the processing

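All values here are from limma at an adjusted p of 0.05, over 20 alternative settings, and the cause of each change was not tested. In VO against Sham, the main 642 genes and 1 member (Dars) became 0 genes and 0 members with no filter on low values, with only the groups compared, and with GC correction. They became 1 gene and 0 members with the replicate block, 3 genes and 0 members without the 3 atrial-marker libraries, and 19 genes and 0 members with GC correction and without VO 3, a setting chosen after seeing the data. Voom gave 1010 genes, 59.9% of them higher in VO against 42.8% of the main 642. Leaving out 1 library at a time gave 0 to 2032 genes and 0 to 4 members, the highest values without VO 3. Scaling without mitochondrially encoded genes gave 755 genes, 28.3% of them higher in VO; it moved the median of all genes tested to -0.05. The replicate numbers were not taken as pairs in the main fit. Same-numbered libraries correlated between -0.40 and 0.24, and differently numbered ones between -0.19 and 0.27. These are correlations of deviations from means of 3 libraries, so they cannot decide whether the numbers pair the libraries.

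In CsA against VO 1 gene was called with GC correction and without VO 3, and 0 to 1 with each library left out; in CsA against Sham 3 genes were called without the atrial-marker libraries and 0 to 3 with each library left out. No member was called in either comparison under any of the 20 settings. The median VO minus Sham difference of cytosolic members was 0.148 with GC correction and 0.0122 to 0.178 with each library left out. That of mitochondrial members was -0.115 scaled without mitochondrially encoded genes, 0.0205 with voom, 0.0135 with GC correction and -0.148 to 0.103 with each library left out. For CsA minus VO the mitochondrial median was 0.164, 0.0389 and -0.0393 under the same 3 settings, -0.0235 with GC correction and without VO 3, and -0.0287 to 0.0954 with each library left out, and the cytosolic median was -0.204 to -0.0184 with each library left out. Sars2 reversed in VO against Sham to 0.0527 with GC correction and to 0.106 when VO 3 was also left out, and in CsA against VO to -0.0458 in that last setting. Tars reversed in CsA against Sham to -0.0351 without the atrial-marker libraries. The other members among the 6 with the smallest p in each comparison kept their direction in all 20 settings. Outside these 6, GC correction took Aars2 to 0.01 and Vars2 to 0.06 in VO against Sham. How depth limits the calls of low members was not tested; the fewest fragments were 39, for Pars2.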
